A study of Rattus norvegicus with 6 samples.

Results

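The genes described here make or import amino acids: Slc38a2, Cth, Psph, Aldh18a1, Asns, Phgdh, Psat1, Gpt, Gatm and Glul. They are 10 of the 7104 genes tested in rat pancreas, and were taken by name from the platform's gene symbols, where all 10 had a probe set annotated to that gene alone. They were chosen with the differences between diets in these arrays known, so their differences are given as a description, with no p for any of them, and nothing is read from how many pass a threshold. Of these, 9 are read by 1 probe set and Glul by 3, which makes 12 of the 15866 probe sets, and all 12 passed the filter on dim signal. Pancreas was taken from 3 rats on an ethanol diet and 3 rats on a control diet. Each single-colour Affymetrix array is taken as 1 rat, since the sample titles give only tissue, diet and replicate number. The study asked about chronic ethanol consumption, and the labels give neither strain, age and sex nor the dose and length of feeding. Values are the authors' intensities, a level on a linear scale after background subtraction, and log2 differences are ethanol minus control on log2(intensity + 50).

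A cell short of an amino acid, or under stress of the endoplasmic reticulum, phosphorylates the initiation factor eIF2alpha, which slows protein synthesis in general and favours translation of the transcription factor ATF4. In mouse and human cells ATF4 binds C/EBP-ATF response elements and raises transcription of genes for amino acid uptake, amino acid synthesis, tRNA charging and the stress response. The acinar cell of the pancreas makes digestive enzymes at a very high rate and so draws heavily on amino acids. From that background knowledge, 7 of the 10 genes are known ATF4 targets (Slc38a2, Cth, Psph, Aldh18a1, Asns, Phgdh and Psat1), and the other 3 (Gpt, Gatm and Glul) were set beside them.

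Promoter windows are shown for 4 genes because ATF4 is known to act through a sequence element: 2 of these windows hold its core and 2, of genes among the 10, do not. Each window runs from 250 bases before to 50 bases after the annotated gene start in RefSeq for GRCr8, in the gene's own direction. Slc38a2 (chr7:129742570-129742869, minus strand) and Asns (chr4:36769366-36769665, minus strand) stand for the ATF4 target with the highest difference between diets and for the one with the lowest. In both the capital marks the first base after the 250 upstream bases. Chac1 (chr3:126795881-126796180, plus strand) and Mars1 (chr7:65023704-65024003, minus strand), ATF4 targets outside the 10, had higher and lower mean signal in ethanol rats. In these the capitals mark TGATGNAA, the core of the element, which lies on the opposite strand and so reads TTGCATCA.
Slc38a2: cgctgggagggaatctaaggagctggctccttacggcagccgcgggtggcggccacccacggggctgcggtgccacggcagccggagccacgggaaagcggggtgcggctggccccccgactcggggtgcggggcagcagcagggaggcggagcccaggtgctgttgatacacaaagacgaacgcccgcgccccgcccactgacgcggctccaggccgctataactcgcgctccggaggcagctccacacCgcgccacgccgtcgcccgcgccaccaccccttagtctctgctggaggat
Asns: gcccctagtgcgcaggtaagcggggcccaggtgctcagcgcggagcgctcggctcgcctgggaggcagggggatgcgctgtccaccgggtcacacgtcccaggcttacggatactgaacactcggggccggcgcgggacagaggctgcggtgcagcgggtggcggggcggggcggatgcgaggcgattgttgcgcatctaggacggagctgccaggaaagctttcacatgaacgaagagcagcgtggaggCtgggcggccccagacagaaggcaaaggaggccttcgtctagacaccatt
Chac1: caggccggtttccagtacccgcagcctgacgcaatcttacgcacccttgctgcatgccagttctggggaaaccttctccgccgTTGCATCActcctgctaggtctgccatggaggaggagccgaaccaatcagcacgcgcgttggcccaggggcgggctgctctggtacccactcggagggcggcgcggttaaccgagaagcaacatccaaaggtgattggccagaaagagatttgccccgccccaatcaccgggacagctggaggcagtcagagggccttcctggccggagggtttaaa
Mars1: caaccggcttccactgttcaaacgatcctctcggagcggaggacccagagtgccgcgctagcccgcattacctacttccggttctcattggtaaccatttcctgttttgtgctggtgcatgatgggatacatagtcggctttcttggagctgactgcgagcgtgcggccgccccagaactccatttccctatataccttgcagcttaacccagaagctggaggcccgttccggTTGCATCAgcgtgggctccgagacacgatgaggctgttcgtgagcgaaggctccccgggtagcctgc

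TGATGNAA was searched on both strands of all 33469 windows and was found in 3.98% of them, or, counted by gene, in 4.16% of 27457 genes. It was in 0 of the 8 genes with a window among the 10 (Aldh18a1 and Gpt have none in the table), which says only that these letters are not in those windows. Among related genes outside the 10, it was in 5 of 16 ATF4 targets of amino acid supply, 7 of 18 ATF4 targets of the stress response and 6 of 19 genes of tRNA charging. It was in 2 of 17 genes in the list of eIF2alpha kinases and regulators, 1 of 38 other amino acid enzymes and 0 of 23 other transporters. The lists of amino acid supply, stress response and tRNA charging held 39 tested genes with a window. Of these, the 14 with the motif had a median log2 difference of 0.018, 8 above 0 and 6 below. The 25 without it had a median of -0.070, 11 above 0 and 14 below.

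The ATF4 targets differed among themselves. Slc38a2, Cth, Psph and Aldh18a1 were 1.41 to 1.81 times as high in ethanol rats as in control rats, Psat1 was 1.30 times as high with overlapping groups, and Asns and Phgdh, at 0.939 and 1.02 times, overlapped as well. Among the other 3 genes, Gpt was lower in ethanol rats, Glul was lower on 2 of its 3 probe sets, and Gatm was slightly higher with overlapping groups. None of the 12 probe sets passed limma at a Benjamini-Hochberg adjusted p under 0.05, where 0.347% of the 9522 tested did. At an unadjusted p under 0.05 stood 7 of the 12, against 18.3% of all. These were 4 higher and 3 lower, against 8.01% and 10.3% of all. The same 7 had groups that did not overlap, an arrangement found on 25.5% of all. Because this contrast chose the genes, nothing is read from these shares.

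Amino acid uptake is represented by Slc38a2, a sodium-coupled transporter of glutamine, alanine and other small neutral amino acids. Its probe set 1370286_at read 6113, 4406 and 5721 in ethanol rats 1, 2 and 3, against 2776, 2677 and 3405 in control rats 1, 2 and 3. Every ethanol value lay above every control value, and the gap between the lowest ethanol and the highest control value was wider than the range of the control rats. The log2 difference was 0.86 (SE 0.18), the largest of the 7 ATF4 targets, close to Psph at 0.84, and without ethanol replicate 3 it was 0.81, against 1.07 for Psph.

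Cth, cystathionine gamma-lyase, carries out the last step of cysteine synthesis by transsulfuration. Its probe set 1367838_at read 5543, 5337 and 5469 in ethanol rats, against 3537, 3671 and 3093 in control rats. The ethanol values lay close together and clear of the controls, with a log2 difference of 0.66 (SE 0.14). Cbs, the enzyme before it in the same pathway and not among the 10, read 5578, 5384 and 4744 in ethanol rats, against 3745, 3984 and 3872 in control rats. It was likewise higher in every ethanol rat, by 0.43 on the log2 scale (SE 0.14), and did not pass (limma adjusted p = 0.169).

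Serine is made from a glycolytic intermediate in 3 steps, by Phgdh, Psat1 and Psph in that order. For Phgdh, the dehydrogenase of the first step, probe set 1367811_at read 4953, 4531 and 4146 in ethanol rats, against 4066, 4529 and 4782 in control rats. These values interleave fully, with a log2 difference of 0.03 (SE 0.14, 95% interval -0.31 to 0.36). For Psat1, the transaminase of the second step, probe set 1372665_at read 5986, 4353 and 4190 in ethanol rats, against 4062, 4272 and 2853 in control rats.
Ethanol rat 1 was high and control rat 3 low, and the others lay near each other. The log2 difference was 0.38 (SE 0.21, 95% interval -0.11 to 0.86), and it was 0.20 without control replicate 3 and 0.21 without ethanol replicate 1. For Psph, the phosphatase that releases serine, probe set 1375964_at read 1342, 1549 and 891 in ethanol rats, against 665, 656 and 666 in control rats. The 3 control values were almost equal and all ethanol values lay above them, ethanol rat 3 nearest. The log2 difference was 0.84 (SE 0.20), so within this chain the last enzyme differed most and the first least.

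Aldh18a1 makes the precursor of proline and ornithine from glutamate. Its probe set 1388521_at read 2695, 2788 and 2820 in ethanol rats, against 1824, 1980 and 2044 in control rats. Both groups were tight and apart, with a log2 difference of 0.50 (SE 0.13).

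Asns, asparagine synthetase, is a standard reporter of ATF4 activity in cultured cells. Its probe set 1387925_at read 11701, 10216 and 9438 in ethanol rats, against 10972, 12074 and 10303 in control rats. The groups overlapped, and 2 of the 3 ethanol values lay below all control values. The log2 difference was -0.09 (SE 0.15, 95% interval -0.43 to 0.25).

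**Figure D1:**
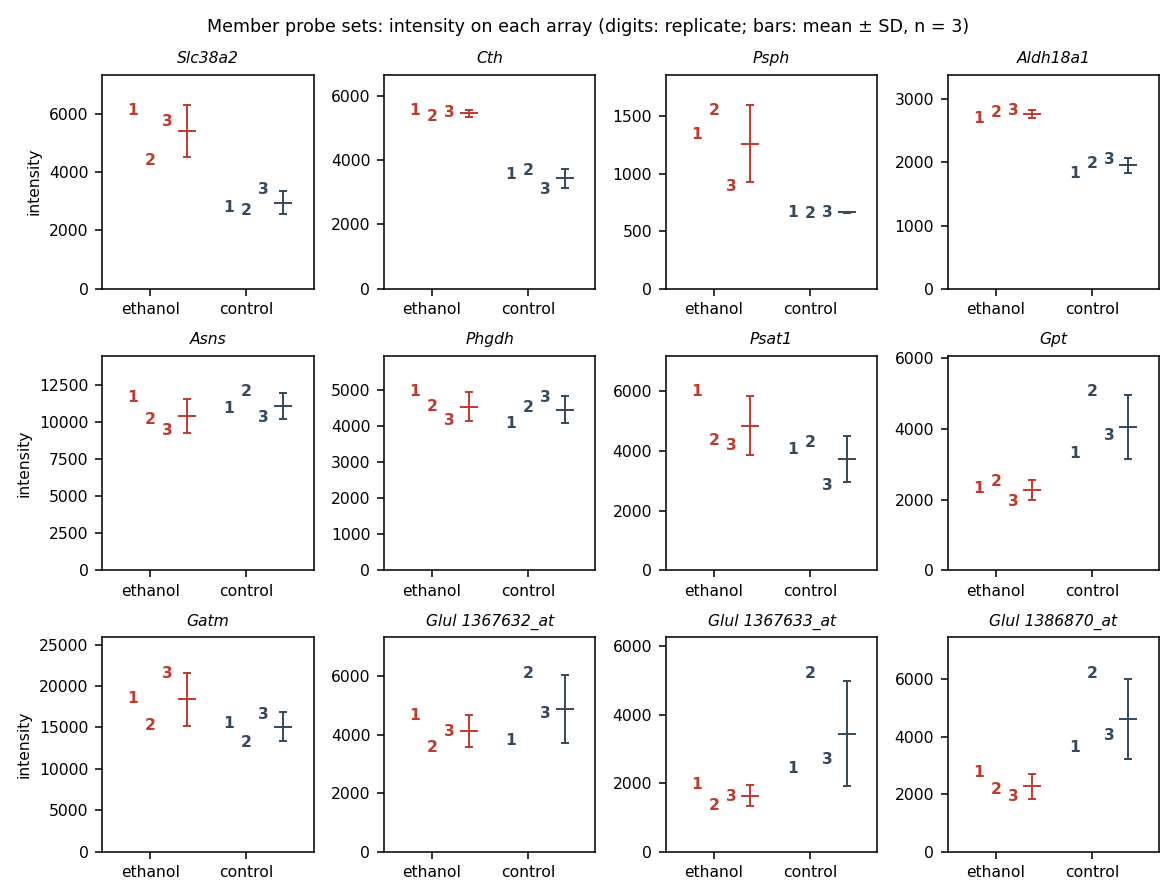
Intensity of each of the 12 probe sets on each array, ethanol rats left and control rats right. Digits mark replicates 1 to 3, and bars give the mean ± SD (n = 3). The ethanol digits lie above all control digits for Slc38a2, Cth, Psph and Aldh18a1 and below them for Gpt and 2 probe sets of Glul.

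The 3 genes that are not established ATF4 targets use or make amino acids by other routes. Gpt, an alanine aminotransferase, moves an amino group between alanine and glutamate. Its probe set 1387052_at read 2304, 2522 and 1958 in ethanol rats, against 3295, 5053 and 3805 in control rats. The groups were apart, with control rat 2 the highest, and the log2 difference was -0.81 (SE 0.19). Its mitochondrial relative Gpt2, which is an ATF4 target, had no probe set annotated to it alone.

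Glul, glutamine synthetase, joins ammonia to glutamate. Its probe set of highest mean, 1367632_at, read 4665, 3570 and 4098 in ethanol rats, against 3786, 6099 and 4732 in control rats, with overlap and a log2 difference of -0.22 (SE 0.20). Probe set 1367633_at read 1956, 1331 and 1609 in ethanol rats, against 2436, 5207 and 2692 in control rats (-0.99, SE 0.29). Probe set 1386870_at read 2744, 2148 and 1911 in ethanol rats, against 3603, 6205 and 4028 in control rats (-0.98, SE 0.23).
All 3 are annotated to the same transcript entry and have control rat 2 as their highest array, but they disagree in size. Averaged, they gave -0.73, and without control replicate 2 the 3 differences were -0.05, -0.65 and -0.75 in the order given.

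Gatm makes guanidinoacetate from arginine and glycine, the first step of creatine synthesis, and is abundant in kidney and pancreas. Its probe set 1367627_at read 18479, 15196 and 21558 in ethanol rats, against 15501, 13169 and 16584 in control rats. Ethanol rats 1 and 3 lay above all controls and ethanol rat 2 among them, with a log2 difference of 0.28 (SE 0.18). It was 0.16 without ethanol replicate 3 and 0.18 without control replicate 2. Gamt, the next enzyme of the pathway, differed by 0.09 (SE 0.18, limma adjusted p = 0.813) and was named after its values were seen.

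Set against each other, the 7 ATF4 targets had a median log2 difference of 0.50, with 6 above 0. In 4 of them the groups were apart, as in 26.4% of all tested genes. The other 3 genes, each on its probe set of highest mean, had a median of -0.22, with 1 above 0. Over all 7104 tested genes the median was -0.012, and 48.5% were above 0. The difference of 0.72 between the medians was not tested, since the genes were picked on this contrast, and it was 1.23 when the probe sets of Glul were averaged.

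**Figure D2:**
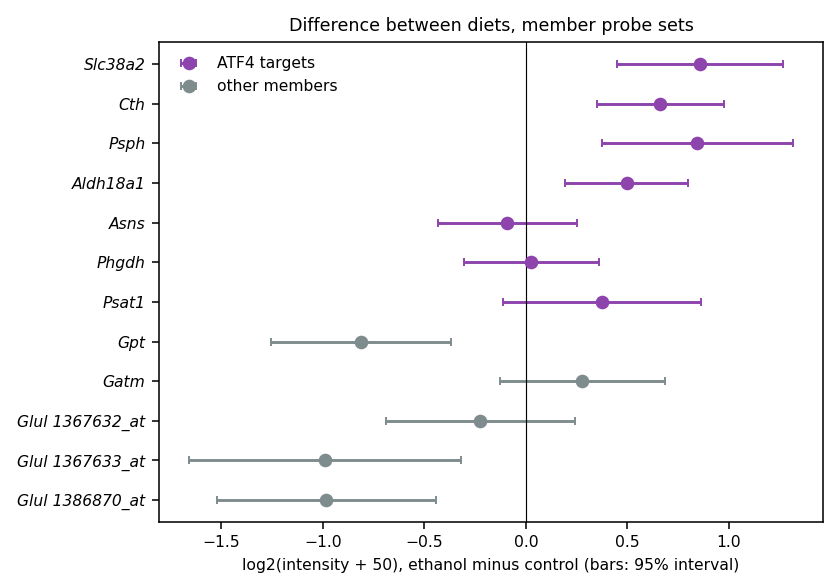
Log2 difference, ethanol minus control, of each of the 12 probe sets on log2(intensity + 50), with 95% intervals from limma. ATF4 targets are purple and the other genes grey. The differences run from -0.99 for a probe set of Glul to 0.86 for Slc38a2, and are a description of genes picked on this contrast.

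Levels of the ATF4 targets also differed within the ethanol group. Their mean log2 level relative to the control mean was 0.58, 0.43 and 0.34 in ethanol rats 1, 2 and 3, against -0.02, 0.05 and -0.03 in control rats 1, 2 and 3. The same mean over the other 3 genes was -0.17, -0.35 and -0.24 in ethanol rats, against -0.19, 0.17 and 0.02 in control rats, and overlapped. Glul enters it by its probe set of highest mean, 1367632_at, whose groups overlap. Its probe sets 1367633_at and 1386870_at read lower in every ethanol rat, so the overlap is given for that choice of probe set only. Asns, Phgdh and Psat1, 3 of the 7 ATF4 targets, each read highest in ethanol rat 1 and lowest in ethanol rat 3. This order held for 0 of the other 3 genes and for 17.0% of all tested genes. It also held for 5 of 10 further ATF4 targets of amino acid supply, 9 of 16 of the stress response and 8 of 18 genes of tRNA charging. In the list of eIF2alpha kinases and regulators it was 1 of 16, among other amino acid enzymes 9 of 29 and among other transporters 3 of 19. This ordering was looked for after the values were seen and was not tested. For the ATF4 targets of the stress response the mean level was 0.31, 0.49 and 0.28 in ethanol rats. Without Atf3 and Ddit4, a choice made after seeing the data, the mean over the 14 others was 0.14, 0.04 and -0.19 in ethanol rats, against -0.01, -0.04 and 0.05 in control rats, and the groups overlapped.

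**Figure D3:**
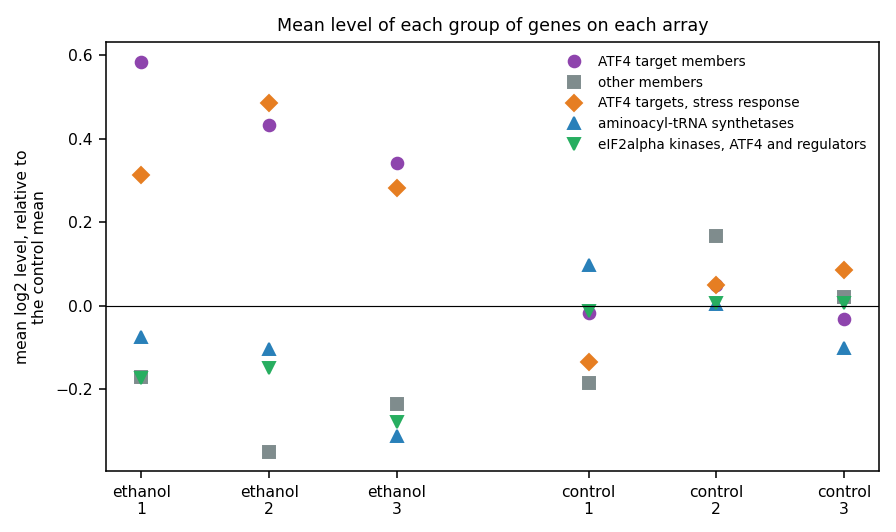
Mean log2(intensity + 50) of each group of genes on each array, relative to the mean of the control rats. Each gene is on its probe set of highest mean. The ATF4 targets among the 10 and the ATF4 targets of the stress response, Atf3 and Ddit4 included, lie above 0 on all 3 ethanol arrays. The other 3 genes, the genes of tRNA charging and the eIF2alpha kinases with ATF4 and its regulators lie below 0 on all 3.

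Related genes outside the 10 were taken from 6 fixed lists and tested in the same fit. None of their measured genes passed limma's adjusted p, as did 0.366% of the 7104 tested genes. The counts that follow are at an unadjusted p under 0.05, which 7.60% of all tested genes met with higher and 11.2% with lower signal in ethanol rats.

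Further ATF4 targets of amino acid supply had a median log2 difference of 0.052 over 10 measured genes, 1 of them higher (Cbs, above), 0 lower and 9 neither. Slc38a1, a close relative of Slc38a2, differed by 0.50 (SE 0.23, limma adjusted p = 0.302). The mitochondrial folate enzymes Shmt2 and Mthfd2, which take serine onward into one-carbon units, differed by -0.47 (SE 0.23) and -0.72 (SE 0.41), with limma adjusted p of 0.324 and 0.387. Both rested partly on ethanol replicate 3: without it they were -0.25 and -0.28, and without ethanol replicate 1 they were -0.69 and -1.12. Slc3a2, the heavy chain shared by several amino acid exchangers, read 19725, 18527 and 19062 in ethanol rats, against 18867, 18709 and 19582 in control rats. Its difference was 0.0037 (SE 0.13, 95% interval -0.29 to 0.30). Slc7a5, its partner for large neutral amino acids, differed by -0.21 (SE 0.41), which was 0.08 without control replicate 1 and -0.74 without control replicate 3. Slc7a11, the cystine exchanger, had no probe set annotated to it alone.

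ATF4 targets of the stress response had a median of 0.11 over 16 measured genes, 4 higher, 1 lower and 11 neither. Ddit4, an inhibitor of mTORC1, read 2801, 6494 and 6352 in ethanol rats, against 766, 1484 and 1138 in control rats. Its difference was 2.11 (SE 0.36, limma adjusted p = 0.0605), and over the alternatives the adjusted p ran from 0.00936 to 0.203. Atf3, a stress-induced transcription factor, read 388, 3413 and 3459 in ethanol rats, against -38, 200 and 162 in control rats.
Atf3 differed by 3.66 (SE 0.88, limma adjusted p = 0.110), a size that depends on the constant because control rat 1 was below 0. In both genes ethanol rat 1 was the lowest of its group, while it was the highest for Asns, Phgdh and Psat1. Atf5, another transcription factor under ATF4, differed by 0.40 (SE 0.14, limma adjusted p = 0.188). Chac1, a glutathione-degrading enzyme whose promoter is printed above, read 5292, 3262 and 2859 in ethanol rats, against 1844, 2278 and 2729 in control rats (0.69, SE 0.25, limma adjusted p = 0.206). Ddit3 (CHOP) and Trib3, both often used as readouts of this pathway, differed by -0.19 (SE 0.19) and -0.20 (SE 0.27), with limma adjusted p of 0.629 and 0.723. Without ethanol replicate 3 they were -0.04 and 0.06, so Trib3 has no settled direction. The lower gene was the autophagy receptor Sqstm1, at -0.79 (SE 0.15, limma adjusted p = 0.0758), while its other tested probe sets were at 0.06 and -0.79.

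Atf4 itself read 19577, 14756 and 13701 in ethanol rats, against 18388, 20040 and 21029 in control rats. Its log2 difference was -0.32 (SE 0.17, 95% interval -0.72 to 0.07, limma adjusted p = 0.357), and ethanol rat 1 lay among the controls. ATF4 is controlled largely at translation, which these arrays do not measure. Of 16 measured genes in its list of eIF2alpha kinases and regulators, 13 were below 0 (median -0.20), with 0 higher, 2 lower and 14 neither. Eif2b4, a subunit of the exchange factor for eIF2, differed by -0.64 (SE 0.16, limma adjusted p = 0.113), and Eif2s3, the gamma subunit of eIF2, by -0.46 (SE 0.19, limma adjusted p = 0.246). The kinases Eif2ak4 (GCN2), which senses uncharged tRNA, and Eif2ak3 (PERK), which senses stress of the endoplasmic reticulum, differed by -0.39 (SE 0.17) and -0.38 (SE 0.20), with limma adjusted p of 0.277 and 0.353.

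Genes of tRNA charging, many of them ATF4 targets in cultured cells, had a median of -0.14 over 18 measured genes, 0 higher, 5 lower and 13 neither. Mars1, the methionyl-tRNA synthetase whose promoter is printed above, read 3195, 2815 and 2270 in ethanol rats, against 4011, 3883 and 3597 in control rats (-0.48, SE 0.16, limma adjusted p = 0.186). Kars1, for lysine, and Qars1, for glutamine, differed by -0.48 (SE 0.15) and -0.41 (SE 0.14), with limma adjusted p of 0.169 and 0.178. Aimp2, a scaffold of the synthetase complex, differed by -0.41 (SE 0.16, limma adjusted p = 0.230).
These lower readings of tRNA charging genes stood on the same arrays as the higher readings of Slc38a2, Cth, Psph and Aldh18a1, and that contrast was not tested.

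**Figure D4:**
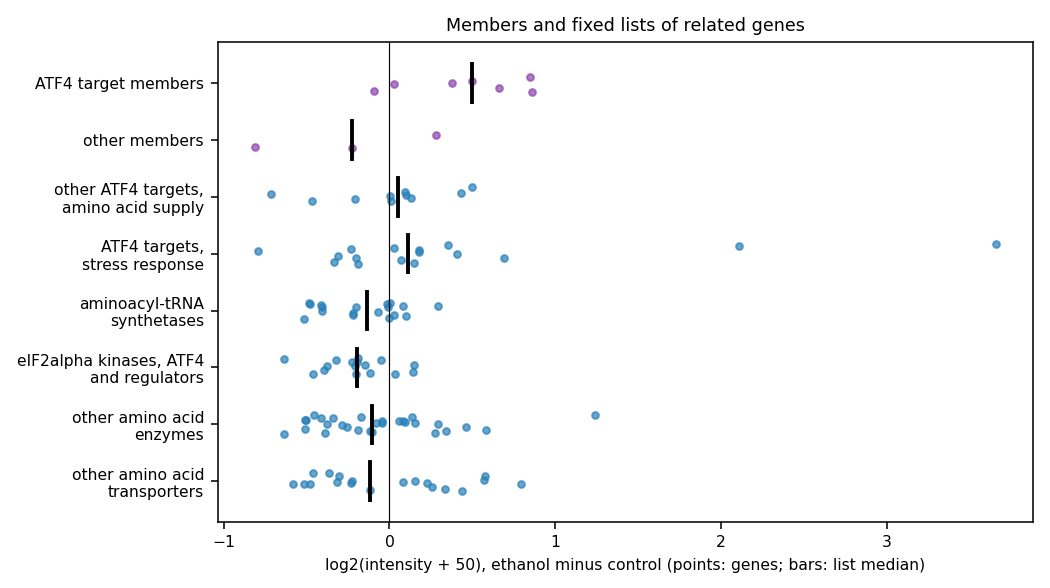
Log2 difference, ethanol minus control, of every measured gene of each list, with each gene on its probe set of highest mean and a bar at the list median. The ATF4 targets among the 10 have a median of 0.50, further ATF4 targets of amino acid supply 0.052 and genes of tRNA charging -0.14.

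Among 29 other measured amino acid enzymes the median was -0.11, with 1 higher, 7 lower and 21 neither. Bckdhb and Bckdha, both subunits of the complex that breaks down branched-chain amino acids, differed by -0.64 (SE 0.15) and -0.50 (SE 0.17), with limma adjusted p of 0.109 and 0.179. Gls2, a glutaminase that opposes Glul, read 18282, 18491 and 18784 in ethanol rats, against 24863, 29186 and 22568 in control rats (-0.45, SE 0.15, limma adjusted p = 0.174). Its ethanol values lay below all controls, beside the lower signal of 2 of the 3 probe sets of Glul. The higher gene was Tdh, a threonine dehydrogenase, at 1.24 (SE 0.44, limma adjusted p = 0.194), with control rat 3 at 644 among the ethanol values of 791, 841 and 605.

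Other transporters had a median of -0.12 over 19 measured genes, 2 higher, 3 lower and 14 neither. Slc7a10, an exchanger of small neutral amino acids, read 1188, 1184 and 1205 in ethanol rats, against 737, 751 and 864 in control rats (0.58, SE 0.13, limma adjusted p = 0.103). The mitochondrial glutamate carrier Slc25a22 read 1181, 1189 and 1090 in ethanol rats, against 1628, 1721 and 1658 in control rats (-0.52, SE 0.13, limma adjusted p = 0.117). Slc36a1, a proton-coupled carrier, and Slc38a10, a relative of Slc38a2, differed by -0.58 (SE 0.19) and -0.46 (SE 0.17), with limma adjusted p of 0.175 and 0.213. Within the Slc38 family, the 5 further measured members ran from -0.46 to 0.57: Slc38a1 read higher and Slc38a10 lower in every ethanol rat than in every control rat, and Slc38a5 differed by -0.12 (SE 0.15, limma adjusted p = 0.716; named after its values were seen).

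The tissue carried acinar markers at very high signal: the sum over 11 of 13 listed acinar genes was 1232213 to 1288567 in ethanol rats, against 1220406 to 1232697 in control rats. Among these 11, Ptf1a differed by 0.45 (SE 0.14, limma adjusted p = 0.165), Prss2 by 0.20 and Pnlip by 0.10. These were higher in every ethanol rat, the groups of the others overlapped, and none of the 11 passed. The sum over 5 of 6 markers of red blood cells was 25817 to 33618 in ethanol rats, against 15625 to 23125 in control rats. None of the 4 tested passed limma's adjusted p (0.111 for Hbb, the lowest), and 3 were higher at an unadjusted p under 0.05, against 7.60% of all tested genes. Sums of 5 of 8 duct markers were 9578 to 10877 in ethanol rats, against 10999 to 11613 in control rats. Most of that sum is Muc1, at 7471 in ethanol rats and 9025 in control rats on average, while Car2 averaged 1401 in ethanol rats and 984 in control rats. Sums of 6 of 8 lymphocyte markers were 1568 to 1747 in ethanol rats, against 1361 to 1435 in control rats, and Cd8a among them was at or below 0 on at least 1 array. Of these 6 only Cd4 passed the filter on dim signal, and it differed by -0.10 with overlapping groups (limma adjusted p = 0.831). Sums of islet, stellate, endothelial, macrophage, adipocyte and liver markers overlapped. Among the single markers, Cfd (adipocyte) and Serpina1 (liver) read higher in every ethanol rat. They differed by 0.69 (SE 0.21, limma adjusted p = 0.164) and 0.17 (SE 0.13, limma adjusted p = 0.535). Acta2 (stellate), which failed the filter on dim signal, read lower in every ethanol rat (-0.73). The groups of the others overlapped, and groups were apart in 26.4% of all tested genes. The part of these cells in the differences of the 10 genes was not tested, and in whole tissue fewer cells of a type cannot be told apart from less RNA per cell. The ratio of 3' to 5' signal, a measure of RNA integrity, was 1.54 to 1.78 for beta-actin in ethanol rats, against 1.44 to 2.01 in control rats. For GAPDH it was 1.52 to 1.87 in ethanol rats, against 1.63 to 2.11 in control rats, highest in control rat 3.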

How the data were processed

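Total RNA of rat pancreas was labelled with biotin and hybridised to 6 arrays, per the labels. The deposited values are intensities from the authors, 1 per probe set and array; the sources used here do not name a scanner, a program or a normalization. The values are whole, linear and background-subtracted (931 to 949 below 0 per array). Their medians were nearly equal (543 or 544), so no normalization was added, and total RNA cannot be compared between diets. Equal medians do not make whole distributions equal: with quantile normalization Asns went from -0.09 to -0.03 and Gatm from 0.28 to 0.34. Of 15923 probe sets, 57 controls were left out. Symbols come from the platform annotation: 12783 probe sets have 1, 312 several and 2771 none. All 10 genes matched RefSeq of GRCr8 by gene ID and kept their symbols.

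Negative values were set to 0, 50 was added and log2 taken. Of the probe sets, 9522 had a mean intensity no lower than the 40th percentile and were tested with limma 3.58.1 in R 4.3.3, in a model of 2 groups without a block, with Benjamini-Hochberg adjustment over all of them. A gene is represented by its tested probe set of highest mean. Replicates are taken as separate rats, the number of arrays limits precision, and the median SE was 0.18. No batch is named in the labels.

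The genes, the ATF4 classes, the lists and the tests were chosen with earlier results of these data known. Named are all 10 genes, the 4 genes of smallest unadjusted p in each related list, and 14 set by name, of which Gpt2 and Slc7a11 had no probe set of their own. The alternatives tried are given in the closing section. The procedure was tested on simulated data. Same-numbered arrays did not deviate together (r of -0.04, 0.02 and -0.15 across tested probe sets for replicates 1, 2 and 3). Differently numbered arrays gave r of -0.07 to 0.11. No pairing by number was seen, but with 3 arrays per diet this check cannot exclude one.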

Additional observations from a re-analysis of the deposited data

How the results depend on the processing

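Of 202 values of the 12 probe sets under 17 alternatives, 201 lay within 1 SD of the reported value, the exception being Glul as the mean of its probe sets (-0.73). Most of these values could not have moved that far. The filter settings, the variance trend, the replicate block and the looser threshold leave every log2 difference unchanged, and gene means change only Glul. Leaving out 1 of 3 arrays shifts a difference by less than that SD in any data. The count is therefore no measure of robustness. Phgdh, near 0, turned sign without ethanol replicate 1 and without control replicate 1 (lowest -0.04). The median of the ATF4 targets ran from 0.45 to 0.53. That of the other 3 genes was -0.73 with gene means and ran from -0.39 (without control replicate 1) to -0.050 (without control replicate 2), and the difference of the medians was 1.23 with gene means and ran from 0.56 to 0.84 with each array left out.

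Counts of calls depended on the settings. Over all probe sets the count was 33 as reported, 11 with a constant of 20, 52 with 100, 16 with quantile normalization, 0 without a filter (2263 at an unadjusted p under 0.05 in limma), 130 with a filter at the 60th percentile, 242 with a variance trend, 5 with the replicate block, 188 at an adjusted p under 0.10, 51 with gene means, and 2 to 43 with each array left out. A filter on mean log2 values, chosen after seeing the data, gave 39, and equal medians 33. Of the 12 probe sets, 2 passed with the filter at the 60th percentile, 4 with the variance trend and 2 at an adjusted p under 0.10. Over all tested probe sets 130, 242 and 188 did, the last 2 counts out of 9522. In the other settings run 0 of the 12 passed, or 0 of the 10 genes with gene means. At an unadjusted p under 0.05 in limma stood 7 of the 12, or 6 of the 10 genes with gene means. The count over all ran from 1232 of 9522 (without control replicate 2) to 2263 of 15866 (without a filter). Because this contrast chose the genes, nothing is read from these counts. Of the listed genes, 1 passed with a constant of 100 (Ddit4), 2 with the filter at the 60th percentile and 2 at an adjusted p under 0.10 (Ddit4 and Sqstm1 in both), 5 with the variance trend (these, Atf3, Bckdhb and Gls2), 2 with the replicate block (Atf3 and Ddit4) and 0 to 2 with each array left out (the same pair, without ethanol replicate 1). At an unadjusted p under 0.05 there were 26 listed genes as reported, and 14 (without control replicate 2) to 27 with each array left out, 16 without control replicate 1, 33 with the variance trend and 29 with gene means. Over all probe sets that count was 1747 as reported, 1232 without control replicate 2 and 1280 without control replicate 1. Of named genes outside the 10, not passed by limma, the difference was as small as 0.24 for Slc38a1 (without ethanol replicate 2), -0.19 for Eif2ak3 and 0.43 for Chac1 (without ethanol replicates 3 and 1), -0.29 for Eif2s3 (without ethanol replicate 1), and -0.30 for Slc38a10 and 0.77 for Tdh (without control replicate 1). The cause of these shifts was not tested.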
